A study of Mus musculus with 16 samples.

Results

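Il2, Il3, Csf2, Il21, Il10 and Ifng are 6 genes for secreted cytokines that CD4+ helper T cells can make in addition to the type 2 set of IL-4, IL-13 and IL-5. They were taken by name from the feature lists of the count matrices and are 6 of the 30406 genes listed in both sequencing runs. All 6 were detected in the lung, and each was read as unique molecular identifiers (UMIs), which count the RNA molecules captured from a cell.

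A Th2 cell is defined by GATA3 and the type 2 cytokines, but T cell receptor signals switch on a wider set of cytokine genes. IL-2 is the growth factor of activated T cells, and IL-3 and GM-CSF, the product of Csf2, act on basophils, mast cells and myeloid cells. IL-21 is the helper cytokine of T follicular helper cells, IL-10 restrains inflammation and is made by effector and regulatory T cells, and IFN-γ is the defining cytokine of Th1 cells. In infection with the intestinal worm Nippostrongylus brasiliensis, whose larvae pass through the lung, helper T cells are primed in the draining lymph nodes and enter the lung as effector cells.

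All cells were CD4+ cells of 4get/C57BL/6 mice, in which eGFP reports transcription of the Il4 locus, so every IL-4eGFP+ cell had been selected by a reporter of another cytokine. The mice were analysed 10 days after injection of 500 larvae, and no uninfected mice were included in either run. In the first run, IL-4eGFP+ cells of the lung and of the mesenteric lymph node (MLN) of 2 mice aged 13 weeks gave the libraries lung 1, lung 2, MLN 1 and MLN 2, together with the T cell receptor (TCR) sequences of the same cells. In the second run, cells of the mediastinal node (medLN), which drains the lung, and of the MLN of 2 other mice aged 10 weeks received 1 hashtag antibody per mouse and organ, and were sorted by reporter into 1 IL-4eGFP+ library and 1 IL-4eGFP- library. Each gate of the second run is 1 library, so gate and library cannot be told apart, and the 4 hashtags of a gate served as its samples.

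After filtering, 1498 lung cells, 3216 MLN cells, 8074 IL-4eGFP+ node cells and 8674 IL-4eGFP- node cells were kept, in 12 sums of counts. Levels are given as CPM, in which the UMIs of a gene are scaled to an equal total of UMIs, without TCR genes, in every sum. Depth was 2798232 to 14512767 UMIs in the 4 libraries of the first run and 7546083 to 10636927 in the 8 hashtag samples. All 6 T cell markers were detected in each sum. The IL-4eGFP+ and IL-4eGFP- libraries shared 113 barcodes, and pairs of lung and MLN libraries shared at most 8. In GFP- cells, Il4 was found in 0 to 3 cells of a sample, against 36.2% to 42.9% of the cells of an IL-4eGFP+ node sample.

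Csf2 and Il3 are neighbours on chromosome 11 of GRCm38, at chr11:54247271-54249667 and chr11:54265303-54267277, both on the minus strand and 15.6 kb apart. Il2 at chr3:37120523-37125959 and Il21 at chr3:37222759-37232636 form another neighbouring pair on the minus strand, 96.8 kb apart. Il10 lies at chr1:131019845-131024974 and Ifng at chr10:118441046-118445892, both on the plus strand. The antisense genes Gm12223 and Gm12534 lie over Csf2 and Il21, and Adad1 overlaps the end of Il2 on the opposite strand. Whether the counting used strand is not given in the sources used here, so reads from these overlaps could have gone to either gene.

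The 250 bases before the start of transcription are printed for Il3, Csf2, Il2 and Ifng, because these genes were detected together in cells described below. They come from RefSeq with the build GRCm38.p6, which held 5 of the 6 promoters (all except Il10), run 5′ to 3′ on the strand of the gene, and have matches of the searched motifs in capitals. The RefSeq start used for Csf2 lies upstream of the gene as the annotation of the first run places it.
Il3 (chr11:54267280-54267529, minus strand): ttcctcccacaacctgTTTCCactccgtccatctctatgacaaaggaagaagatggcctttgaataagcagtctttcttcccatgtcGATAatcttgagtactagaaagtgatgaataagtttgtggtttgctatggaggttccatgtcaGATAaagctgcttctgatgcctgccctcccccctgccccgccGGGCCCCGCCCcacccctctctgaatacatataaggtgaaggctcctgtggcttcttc
Csf2 (chr11:54249900-54250149, minus strand): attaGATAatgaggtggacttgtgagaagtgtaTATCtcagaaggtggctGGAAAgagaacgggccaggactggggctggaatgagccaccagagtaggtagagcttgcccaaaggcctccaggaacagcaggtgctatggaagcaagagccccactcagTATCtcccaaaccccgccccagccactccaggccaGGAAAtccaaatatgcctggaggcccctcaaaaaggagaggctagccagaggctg
Il2 (chr3:37125955-37126204, minus strand): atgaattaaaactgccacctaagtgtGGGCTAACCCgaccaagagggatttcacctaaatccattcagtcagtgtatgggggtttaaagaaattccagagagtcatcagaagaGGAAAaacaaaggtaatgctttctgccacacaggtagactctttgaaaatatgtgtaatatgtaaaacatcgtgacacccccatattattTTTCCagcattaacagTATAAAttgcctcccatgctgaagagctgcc
Ifng (chr10:118440796-118441045, plus strand): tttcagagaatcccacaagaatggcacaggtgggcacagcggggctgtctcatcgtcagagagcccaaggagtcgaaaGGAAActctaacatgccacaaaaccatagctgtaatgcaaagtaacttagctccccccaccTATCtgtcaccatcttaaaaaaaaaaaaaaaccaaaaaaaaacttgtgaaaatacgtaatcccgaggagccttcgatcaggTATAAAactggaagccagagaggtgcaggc

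The letters searched on both strands were GGAAA, the core bound by NFAT, TGANTCA for AP-1, GATA for GATA factors, GGG and CC with any 5 letters between them for NF-κB and TATAAA for the TATA box. GGAAA was found in all 4 promoters, with 2 matches in Il2, 1 in Il3, 2 in Csf2 and 1 in Ifng, and in 55.6% of all 32851 promoters of this length. GATA was found in Il3, Csf2 and Ifng, and in 53.6% of all promoters. The 10 letters of the NF-κB pattern were matched in Il2 and Il3, and in 45.8% of all promoters. TATAAA stood 31 to 26 bases before the start of Il2 and 30 to 25 bases before that of Ifng, and occurs in 12.4% of all promoters. TGANTCA, found in 6.75% of all promoters, had no match in these windows. These matches describe the printed letters and are not evidence of binding.

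**Figure D1:**
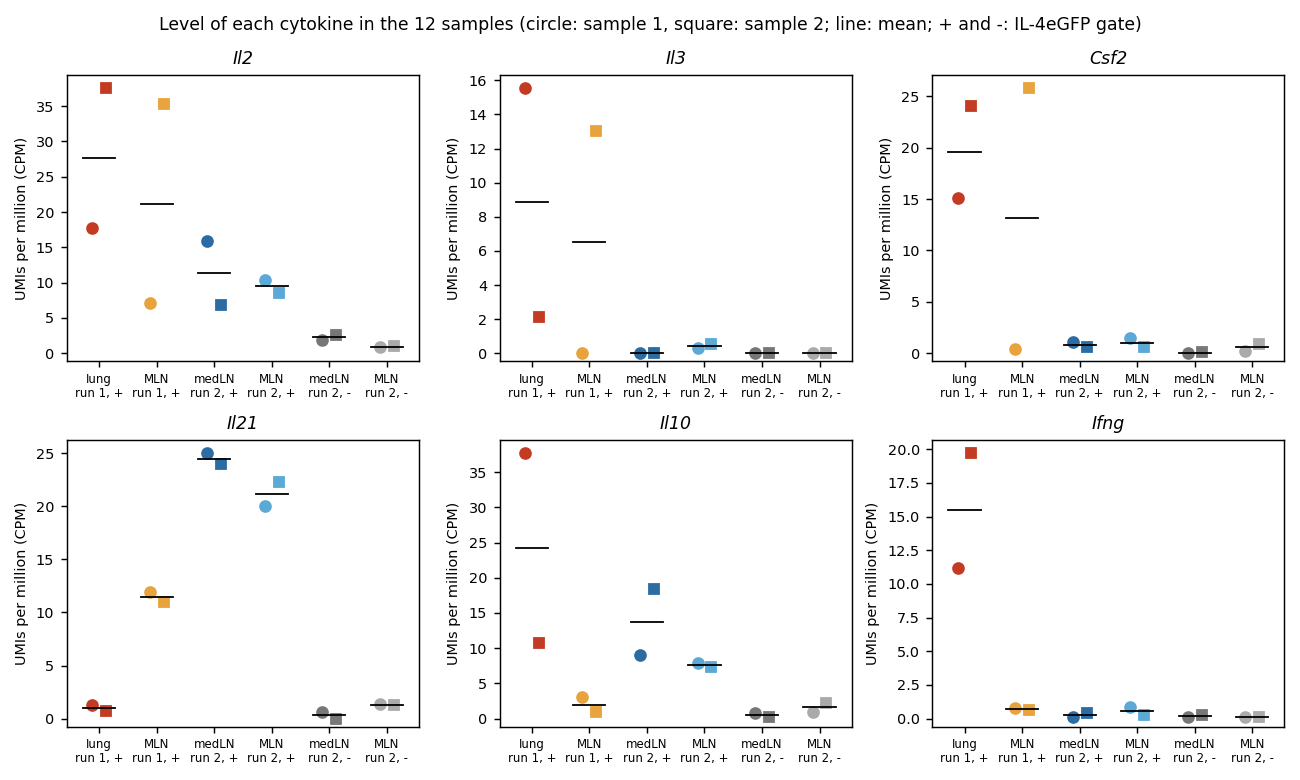
Each panel plots 1 cytokine gene as CPM (y axis, linear) in the 12 sums of counts, grouped on the x axis by organ, run and IL-4eGFP gate, with a circle for sample 1, a square for sample 2 and a line for their mean. Il21 sits between 11 and 25.0 CPM in the 6 IL-4eGFP+ node sums and at 1.30 and 0.717 in the lung, whereas Ifng reaches 11.2 and 19.7 in the lung and stays below 1 elsewhere.

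Among IL-4eGFP+ cells, those of the lung most often held UMIs of any of the 6 cytokines. At least 1 of the 6 genes was found in 19.1% of lung 1 and 18.3% of lung 2 cells, against 7.88% and 8.75% in MLN 1 and MLN 2. The IL-4eGFP+ node samples were at 9.31% to 10.7%, and the IL-4eGFP- samples at 0.845% to 1.02%. Lung cells were sequenced more deeply, with a median of 6583 UMIs per cell in both libraries together, and after thinning every cell to 2000 UMIs the mean share was 9.99% in the lung, 3.89% in the MLN, 6.58% in IL-4eGFP+ and 0.572% in IL-4eGFP- node samples. The order of lung, IL-4eGFP+ and IL-4eGFP- nodes was the same at equal depth, although lung and nodes of the second run came from other mice and another run.

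Background from free RNA was read from cells that should lack these genes. None of the 46 barcodes of the IL-4eGFP+ node library with B cell markers held a UMI of any of the 6, which allows a share of up to 6.52%, while 3 of them held Il4. Of the 20 such barcodes of the IL-4eGFP- library 1 held Il21, and the other 5 genes were at 0, which allows up to 15%. These limits lie above nearly all node shares given here, which are shares of cells with a UMI and were not bounded against free RNA.

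UMIs of Il2, which encodes the growth factor IL-2, were found in every sample. Il2 was at 17.8 and 37.6 CPM in lung 1 and lung 2, at 7.06 and 35.3 in MLN 1 and MLN 2, at 15.9, 6.87, 10.4 and 8.59 in IL-4eGFP+ cells of medLN 1, medLN 2, MLN 1 and MLN 2, and at 1.95, 2.53, 0.870 and 1.02 in the IL-4eGFP- cells of the same nodes. The share of cells with a UMI was 7.02% and 11.8% in the lung and 2.52% and 4.11% in the MLN, with intervals (exact Clopper-Pearson, 95%, counting error only) of 5.57 to 8.71, 8.84 to 15.3, 1.94 to 3.22 and 2.81 to 5.79. Thus the lung shares lay above both MLN shares, although the intervals of lung 1 and MLN 2 overlapped, whereas MLN 2 had nearly the CPM of lung 2. After thinning, the shares were 2.72% and 5.39% in the lung and 1.16% and 1.88% in the MLN. The intervals of lung 1 (1.83 to 3.88) and MLN 2 (1.03 to 3.14) overlapped there too. The median Il2+ cell held 1 UMI in each sample, and the highest held 18 and 17 in the lung, 38 in MLN 1 and 117 in MLN 2.

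IL-3 and GM-CSF, the growth factors for myeloid and mast cells, were rarer and came from few cells. Il3 was at 15.6 and 2.15 CPM in lung 1 and lung 2, from 29 and 2 cells, at 0 in MLN 1, which allows up to 0.122% of cells, and at 13.02 in MLN 2, from 2 cells. In the nodes of the second run it was found in 3 and 6 IL-4eGFP+ cells of MLN 1 and MLN 2, each with 1 UMI, and in none of the other 6 samples. Lung 1 and lung 2 were thus far apart in Il3, as were MLN 1 and MLN 2.

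Csf2 was at 15.1 and 24.0 CPM in the lung from 25 and 9 cells, at 0.415 in MLN 1 from 4 cells and at 25.8 in MLN 2 from 4 cells. In the node samples it was at 0.566 to 1.53 CPM in IL-4eGFP+ and at 0 to 0.891 in IL-4eGFP- cells. The UMIs were concentrated, since the 5 highest cells held 71.1% of the Csf2 UMIs of lung 1 and 94.0% of those of lung 2.

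IL-21 had the reverse distribution between lung and nodes. Il21 was at 1.30 and 0.717 CPM in the lung, at 11.98 and 11 in the MLN, and at 25.0, 24.0, 20.1 and 22.3 in the IL-4eGFP+ samples of medLN 1, medLN 2, MLN 1 and MLN 2. In IL-4eGFP- cells it was at 0.649, 0, 1.37 and 1.27. Cells with a UMI made up 5.07% to 6.80% of the IL-4eGFP+ node samples and 4.22% and 3.58% of MLN 1 and MLN 2, and 0.555% and 0.240% of the lung libraries. In each node sample of the gate the single highest cell held no more than 5.73% of the Il21 UMIs, so this level, unlike that of Csf2, was carried by many cells.

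Il10 was at 37.7 and 10.8 CPM in the lung, at 3.05 and 0.898 in the MLN, at 9.08, 18.4, 7.86 and 7.36 in IL-4eGFP+ and at 0.779, 0.266, 0.995 and 2.16 in IL-4eGFP- node samples. Shares of cells were 6.1% and 2.88% in the lung, 1.02% and 0.531% in the MLN and 0.941% to 1.30% in the IL-4eGFP+ nodes. The lung libraries lay above both MLN libraries but were themselves far apart. In medLN 2 a cell with 46 Il10 UMIs held 26.4% of the sample's total, and its share of cells was no higher than that of the other samples.

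IFN-γ transcripts were found mostly in the lung. Ifng was at 11.2 and 19.7 CPM in lung 1 and lung 2, from 26 and 15 cells, and at 0.762 and 0.674 in MLN 1 and MLN 2, from 5 and 3 cells. The 8 node samples were at 0.106 to 0.873 CPM, with 1 to 6 cells each. IL-4eGFP+ and IL-4eGFP- samples overlapped at these few cells.

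The comparison of lung and MLN asks how cytokine transcription differs between the effector site and a lymphoid organ in cells of one reporter gate. With edgeR's quasi-likelihood test on 2 libraries a group and Benjamini-Hochberg adjustment over 10588 genes, 31.0% of all genes tested were called at an adjusted p under 0.05, and of the 6 cytokine genes 2 were higher in the lung, 1 was lower and 3 were not called. Ifng was 4.40 ± 0.38 (SE) log2 units higher in the lung (adjusted p = 3.06e-05), Il10 was 3.62 ± 0.57 higher (adjusted p = 0.00138), and Il21 fell by 3.16 ± 0.34 (adjusted p = 0.000136). These calls held under each alternative computed. Ifng passed the filter on low counts through the lung, with 95 and 55 UMIs against 11 and 3 in the MLN. So did Il10, with 320 and 30 against 44 and 4. Il21 passed through the MLN, with 173 and 49 UMIs against 11 and 2 in the lung. Genes low in both organs were left out of the test. Il4, by which the cells had been sorted, was at 447 and 388 CPM in the lung and 397 and 318 in the MLN, a difference of 0.36 ± 0.16 (adjusted p = 0.110). Lung and MLN of the same number were taken as one mouse. Lung and MLN cells were prepared differently, with enzymatic digestion of the lung only, so that organ and preparation cannot be told apart.

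For Il2, Csf2 and Il3 the comparison turned on 1 cell of MLN 2. This cell held 117 Il2, 56 Il3 and 112 Csf2 UMIs, which were 74.5%, 96.6% and 97.4% of the UMIs of these genes in its library. It also held 130 Il13, 37 Il4, 33 Tnfsf11, 26 Tnf, 26 Nr4a1, 23 Cd40lg, 20 Cd69 and 11 Gata3 UMIs, and 3.10% of its 9185 UMIs came from the 6 cytokine genes. With 2771 genes, 1.88% mitochondrial UMIs, 2 TCRα and 2 TCRβ chains, it passed all filters, and the extra chains are of the kind that a pair of cells in 1 droplet would also give, which was not tested.

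With this cell, Il2 was 0.63 ± 0.60, Csf2 1.05 ± 1.04 and Il3 1.42 ± 1.23 log2 units higher in the lung (edgeR, adjusted p = 0.463, 0.477 and 0.412). Without it, MLN 2 dropped to 9.001 CPM for Il2, 0.675 for Csf2 and 0.450 for Il3. All 3 genes were then called higher in the lung, by 1.86 (edgeR, adjusted p = 0.00144), 5.36 (adjusted p = 7.63e-06) and 6.54 (adjusted p = 0.00216). The cell was chosen after seeing the data, by its Csf2 UMIs, and no lung cell was left out. The calls without it therefore describe its weight and are not a separate test. Leaving out every cell with extra TCR chains gave 1.83, 5.22 and 6.44. Leaving out MLN 1 instead turned the 3 differences to -0.32, -0.33 and -0.13, and leaving out lung 1 turned Il3 to -1.26. With mouse as a block, Il2 was called at 0.84 (adjusted p = 0.00253) and Csf2 at 1.74 (adjusted p = 0.00636), whereas Il3 was at 1.82 (adjusted p = 0.0890).

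**Figure D2:**
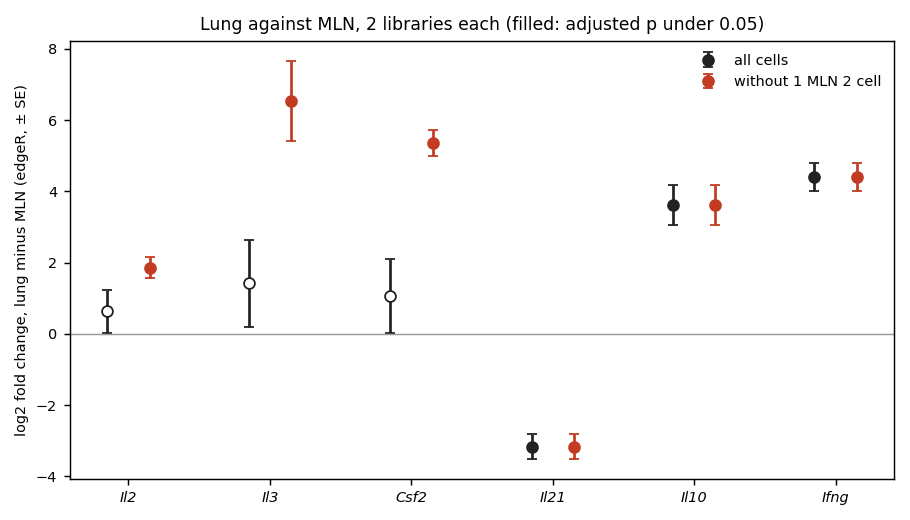
The y axis gives the log2 fold change of lung over MLN (edgeR, bars ± SE, 2 libraries a group) for the 6 genes on the x axis, with all cells in black and without the 1 MLN 2 cell in red, and filled points mark an adjusted p under 0.05. Leaving out this cell, which was chosen after seeing the data, moved Il2 from 0.63 to 1.86, Il3 from 1.42 to 6.54 and Csf2 from 1.05 to 5.36. It left Il21, Il10 and Ifng where they were.

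Other genes of these pathways were read from lists of receptors, transcription factors, mRNA decay factors and further T cell cytokines. Of the 10 receptor genes tested, 7 were higher in the lung and 1 was lower, with a median of 0.60 against -0.01 over all genes. Il10ra, which binds IL-10, was at 245 to 306 CPM in the lung and 32.6 to 37.3 in the MLN (3.14 ± 0.17, edgeR, adjusted p = 2.06e-06). Ifngr1, the binding chain of the IFN-γ receptor, was 2.91 ± 0.14 higher (adjusted p = 9.46e-07), Il2ra, the high-affinity chain of the IL-2 receptor, 2.79 ± 0.23 higher (adjusted p = 2.19e-05), and Csf2ra fell by 0.82 ± 0.27 (adjusted p = 0.0446). Il21r differed by -0.09 ± 0.13 (adjusted p = 0.649), while its ligand was lower in the lung.

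Of 27 transcription factors tested, 14 were higher in the lung and 4 lower, with a median of 1.13. The AP-1 members Fosl2, Fos and Junb were 7.01 ± 0.38, 4.38 ± 0.49 and 4.13 ± 0.29 higher (edgeR, adjusted p = 1.92e-06, 0.000156 and 7.85e-06), and so was Bhlhe40, a regulator of GM-CSF, IL-10 and IFN-γ production, by 4.43 ± 0.19 (adjusted p = 5.83e-07). Prdm1, which encodes Blimp-1, rose by 2.27 ± 0.26 and Tbx21, which encodes the Th1 factor T-bet, by 2.20 ± 0.54 (adjusted p = 0.000173 and 0.0131). Bcl6, the factor of follicular helper cells, fell by 1.24 ± 0.15 (adjusted p = 0.000322). Of 7 mRNA decay factors, 4 were higher and 1 lower, among them the RNase gene Zc3h12a at 2.81 ± 0.20 (adjusted p = 8.31e-06) and Zfp36, which encodes tristetraprolin, at 1.69 ± 0.15 (adjusted p = 3.84e-05), both of which destabilise cytokine mRNAs.

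Among 15 further cytokines tested, 9 were higher in the lung and 2 lower, with a median of 1.35. Il5 (7.54 ± 0.72, edgeR, adjusted p = 6.00e-05), Areg (7.06 ± 0.67, adjusted p = 5.46e-05) and Il13 (3.29 ± 0.66, adjusted p = 0.00503) were higher, and Ccl3 was at 16.8 to 18.7 CPM in the lung with 0 UMIs in the MLN. Il16 fell by 1.71 ± 0.19 (adjusted p = 0.000165). Of the 227 Il13 UMIs of MLN 2, 130 were in the 1 cell described above, and without it the Il13 difference was 4.21 ± 0.49 (edgeR, adjusted p = 0.000208). With all cells, DESeq2 gave 3.07 for Il13 (adjusted p = 0.0583). Leaving out lung 1, lung 2, MLN 1 or MLN 2 gave 2.40, 3.90, 2.33 and 4.76 for Il13, all called by edgeR.

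Values that moved with the organ were looked at beside these results. Nr4a1, an early-response gene of the antigen receptor that is also induced by cell handling, was found in 86.0% of lung 1 and 75.7% of lung 2 cells, against 4.75% and 5.17% in MLN 1 and MLN 2. The summed level of 6 NK and ILC markers was 187 to 205 CPM in the lung and 32.1 to 47.4 in the MLN, with Rora higher in the lung (3.26 ± 0.17, edgeR, adjusted p = 1.77e-06), Klrb1c lower (-2.78 ± 0.61, adjusted p = 0.00774) and the defining genes Ncr1 and Klre1 at 0 UMIs in both lung libraries. Mast cell and basophil markers summed to 6.09 to 8.96 CPM in the lung and 0.138 to 0.449 in the MLN, and no more than 1 lung cell of a library held 2 or more of them. Of 5 myeloid markers tested, 3 were lower in the lung (Lyz2, C1qa and C1qb, at 0 UMIs in both lung libraries) and Cst3 was higher (0.43 ± 0.12, edgeR, adjusted p = 0.0217). The summed level of the 6 myeloid markers was 128 to 132 CPM in the lung and 124 to 145 in the MLN, and 2 and 1 lung cells held 2 or more of them against 46 and 26 MLN cells. The B cell marker Cd79b fell by 2.52 ± 0.58 (adjusted p = 0.00927). The part of cell handling and of other cells in the cytokine results was not tested.

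In the nodes, the reporter gate was compared over 4 hashtag samples each. All 3 cytokine genes that passed the filter on low counts were higher in IL-4eGFP+ cells, where 62.1% of the 11535 genes tested were called in all. Il10 passed through the IL-4eGFP+ samples, with 72 to 174 UMIs against 2 to 17 in IL-4eGFP- samples. Genes low in both gates were left out, so the shared direction of the 3 depends in part on the filter. Il21 was 4.89 ± 0.23 (SE) log2 units higher (edgeR, adjusted p = 1.81e-08), Il10 3.28 ± 0.35 (adjusted p = 1.16e-05) and Il2 2.64 ± 0.32 (adjusted p = 2.99e-05), and the gates did not overlap in any of the 3. Il4 itself differed by 11.15 ± 0.18 (adjusted p = 1.26e-10). Myeloid markers moved with the gate as well, with 4 of 6 higher in IL-4eGFP+ cells and 1 lower (median 1.49), summed levels of 171 to 248 against 104 to 126 CPM, none of the 6 at 0, and 26 to 98 against 11 to 16 cells a sample with 2 or more. Of 5 B cell markers tested 1 was higher (Pax5, 1.72 ± 0.58, edgeR, adjusted p = 0.0232). Their part in the cytokine results was not tested.

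Il3, Csf2 and Ifng had too few UMIs for the fit and were compared by an exact two-sided permutation test of the CPM values, in which 70 splits allow no p below 0.0286. The test treated the sums as unpaired, although each hashtag was present in both gates. Il3 was 0.223 CPM higher in IL-4eGFP+ samples (exact permutation p = 0.429), Csf2 0.628 CPM (exact permutation p = 0.0857) and Ifng 0.259 CPM (exact permutation p = 0.229), and the gates overlapped in each. A difference in these 3 genes was not detectable at this depth.

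Of 10 receptor genes, 3 were higher in IL-4eGFP+ cells and 6 lower, with a median of -0.19 against -0.01 over all genes. Both IFN-γ receptor chains, Ifngr1 and Ifngr2, fell by 1.35 ± 0.14 and 1.42 ± 0.07 (edgeR, adjusted p = 1.06e-05 and 2.16e-08) and Il21r by 1.27 ± 0.05 (adjusted p = 3.94e-09), while Il3ra was 1.37 ± 0.13 higher (adjusted p = 3.66e-06) and Il10ra 0.66 ± 0.10 higher (adjusted p = 0.000236). In these nodes the gate with more Il21 thus had less Il21r RNA, at 87.2 to 98.7 CPM against 193 to 215. Of 29 transcription factors, 15 were higher and 10 lower, with a median of 0.18. Maf, which drives IL-21 and IL-10 transcription, rose by 3.07 ± 0.07 and Eomes fell by 5.23 ± 0.10 (adjusted p = 2.96e-10 and 6.35e-11). Foxp3, the factor of regulatory T cells, fell by 3.14 ± 0.14 (adjusted p = 9.51e-09). Of 7 mRNA decay factors none was higher and 4 were lower, with a median of -0.30. Between the gates 62.1% of all genes tested were called, a share that these 7 did not exceed. Zfp36 fell by the most, by 0.82 ± 0.04 (edgeR, adjusted p = 3.32e-08). Il13, Il5 and Il6 had 0 UMIs in IL-4eGFP- cells and were at 28.7 to 149, 5.76 to 19.1 and 2.51 to 6.14 CPM in IL-4eGFP+ cells.

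Between medLN and MLN none of the 3 cytokine genes tested (Il2, Il21 and Il10) was called in either gate. Of the genes tested, 1.38% were called between the organs in IL-4eGFP+ cells and 0.0433% in IL-4eGFP- cells, and 0.156% differed between the gates in this contrast. In IL-4eGFP+ cells, Il10 was 0.85 ± 0.31 higher in the medLN (edgeR, adjusted p = 0.275), Il2 0.27 ± 0.31 (adjusted p = 0.801) and Il21 0.20 ± 0.17 (adjusted p = 0.714). Before adjustment, edgeR gave a p under 0.05 for Il10 in IL-4eGFP+ cells (0.0189), for Il21 in IL-4eGFP- cells (0.0112, lower in the medLN) and for both in the difference of the gates (0.0141 and 0.00779), and DESeq2 called none of the 3. These values do not show that the draining nodes of lung and gut were alike, since only 2 samples stood on each side. With mouse as a block, 313 in place of 159 genes were called in IL-4eGFP+ cells, 21 in place of 5 in IL-4eGFP- cells and, with the hashtag as a block, 81 in place of 18 for the difference, again without any of the 3.

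UMIs of several of the 6 genes were seldom found in 1 cell. Of the cells with any of them, 31 of 283 in the lung, 10 of 260 in the MLN, 26 of 802 in IL-4eGFP+ and 1 of 83 in IL-4eGFP- nodes held 2 or more. Only 3 cells held 3, and none held 4. Genes found in so few cells, often by 1 UMI, give few joint cells in any case, and a cell with 0 UMIs can hold transcripts that were not captured, so no separation is read from these counts. In lung 1, the median depth was 6743 UMIs in cells with none, 7663 in cells with 1 and 9804.5 in cells with 2 of the genes, so that joint detection went with depth, whereas lung 2 had 5649.5, 6068 and 6058.

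Pairs were counted over all cells, among which the share of each gene differs by organ and gate. For joint detection after thinning, here and below, only the partner gene was thinned. The cells with and without the cytokine were still told apart at full depth. Il3 and Il10 met in 9 cells, which were 21.4% of all 42 Il3+ and 4.33% of all 208 Il10+ cells, and 5 of them were in lung 1, where 17.2% of 29 Il3+ cells held Il10 against 5.79% of the others, but 3.45% against 3.37% after thinning. Il2 and Ifng met in 9 cells (13.6% of 66 Ifng+ and 1.97% of 457 Il2+ cells), 8 of them in the lung. Il2 and Csf2 also met in 9 cells (12.3% of 73 Csf2+ cells), and Csf2 and Ifng in 5 (7.58% of Ifng+ cells).

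Il2 and Il10 met in 2 cells, which were 0.962% of all Il10+ cells. Il21 with Il3, Il21 with Csf2, and Il3 with Ifng met in none, which is not read as avoidance, since these genes were rare or found in different organs. The most frequent pair by number, Il2 and Il21, was found in 19 cells, 4.16% of all Il2+ cells and 2.91% of 653 Il21+ cells. Of the 3 cells with 3 of the genes, 2 lung cells held Il2, Csf2 and Ifng, and the other was the MLN 2 cell with Il2, Il3 and Csf2.

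**Figure D3:**
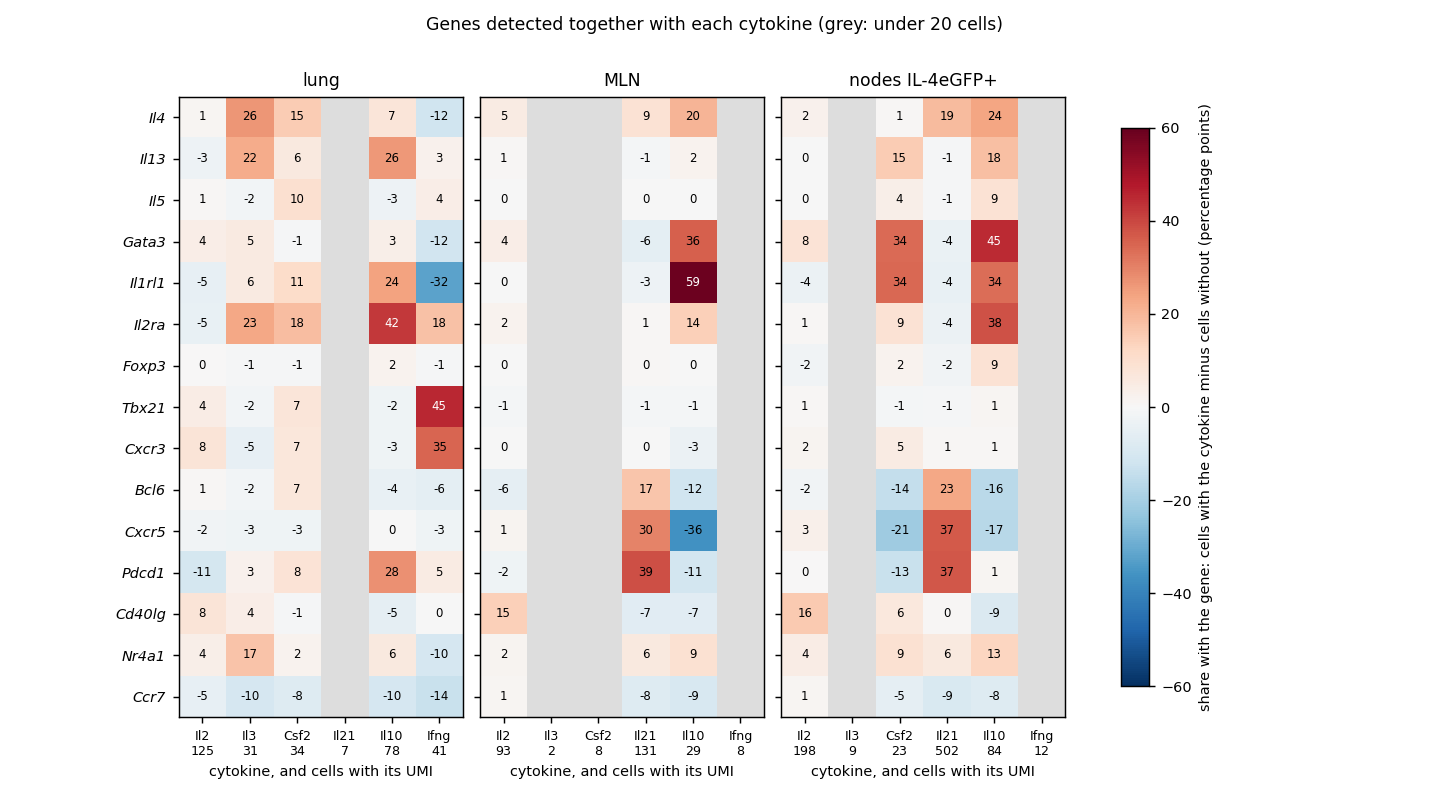
Each square gives, for cells pooled over the samples of a group, the share of cells with a UMI of the gene on the y axis among cells with the cytokine on the x axis minus the share among cells without it, in percentage points, with red for higher, blue for lower and grey for under 20 cells. Ifng+ lung cells stand out for Tbx21 and Cxcr3, Il21+ node cells for Cxcr5 and Pdcd1, and Il10+ cells for Il2ra in lung and IL-4eGFP+ nodes and for Il1rl1 in each of the 3 groups.

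With Il4, the sorting cytokine, the 6 genes combined differently. In the lung, Il4 was detected in 29 of 31 Il3+ cells (93.5%, 78.6 to 99.2) against 67.1% of the others, and after thinning in 67.7% against 37.3%. Il4 was found in 68.8% of Il2+ cells against 67.6% of Il2- cells, and in 56.1% of Ifng+ cells (39.7 to 71.5) against 68.0%. For Csf2 the direction changed with depth, from 82.4% against 67.3% to 32.4% against 38.1% after thinning, and no direction is read from it.

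Among IL-4eGFP+ node cells, Il4 was detected in 56.4% of Il21+ cells (51.9 to 60.8) against 37.3% of the others, and in 61.9% of Il10+ cells (50.7 to 72.3) against 38.3%. After thinning these shares were 36.8% against 23.8% and 44.9% against 24.4%. Each of the 4 node samples had more Il4+ cells among Il21+ cells than among the others, at 53.5% to 60.4% against 34.9% to 41.6%. Il4 was not found in any of the 83 IL-4eGFP- cells with any of the 6 cytokine genes. This gate was sorted as negative for the Il4 reporter, and only 5 of its 8674 cells held Il4. Nothing about joint detection is therefore read from this count.

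Ifng+ lung cells carried Th1-type genes. Tbx21, which encodes T-bet, was detected in 20 of 41 Ifng+ lung cells (48.8%, 32.9 to 64.9) and in 3.57% of the others, and the chemokine receptor gene Cxcr3 in 39.0% against 3.98%. Il1rl1, which encodes the IL-33 receptor of Th2 effector cells, was detected in 34.1% against 66.4%. The pattern was present in each library, with Tbx21 in 46.2% of Ifng+ cells of lung 1 and 53.3% of lung 2 against 2.08% and 7.48%.

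Gata3, the Th2 factor, was nonetheless found in 80.5% of Ifng+ lung cells, against 92.0% of the others. After thinning, Tbx21 was in 27.5% against 1.95% and Gata3 in 47.5% against 73.6%. None of the 41 cells held Il10 or Foxp3, which allows up to 7.32% for each.

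In the MLN the few Ifng+ cells differed in TCR. An invariant TCRα chain of the kind used by innate-like T cells was carried by 5 of 8 Ifng+ MLN cells, against 60 of 3208 others (1.87%). In the lung it was carried by 2 of 41 Ifng+ cells (4.88%, 0.596 to 16.5), against 0.618% of the others. Zbtb16, which encodes the innate-like factor PLZF, was detected in 3 of the 8 Ifng+ MLN cells and in 5 of 12 Ifng+ cells of the IL-4eGFP+ nodes (41.7% against 0.732%). In lung and MLN together, 2 of 42 Csf2+ cells carried an invariant chain (4.76%, 0.582 to 16.2), against 1.58% of the others. It was found in 0 of 218 Il2+, 0 of 33 Il3+, 0 of 138 Il21+ and 0 of 107 Il10+ cells. The exact Clopper-Pearson upper limits were 1.68%, 10.6%, 2.64% and 3.39%, against 1.69%, 1.62%, 1.66% and 1.65% of the other cells. No absence is read from these counts, since the limits reach or nearly reach those shares. These counts are small, and the cells of a library are not replicates.

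Il21+ cells carried genes of T follicular helper cells in both runs. In the MLN of the first run, Pdcd1, which encodes PD-1, was detected in 82.4% of 131 Il21+ cells against 43.7% of the others, Cxcr5, the receptor that guides T cells to follicles, in 67.9% against 38.2%, and Bcl6 in 31.3% against 14.4%. In the IL-4eGFP+ nodes the shares among 502 Il21+ cells were 61.0% against 23.8%, 55.8% against 19.1% and 40.2% against 17.1%, and after thinning 44.0% against 15.04%, 37.0% against 12.4% and 23.4% against 11.1%. The TCR clones of Il21+ MLN cells were expanded, with 2 or more cells, in 29.8% (22.1 to 38.4), against 25.6% of the other cells. By library, this was 29.8% of 104 cells against 29.6% in MLN 1, and 29.6% of 27 cells against 12.4% in MLN 2.

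Counts summed over cells with and without a UMI of a gene were then compared within the same samples by edgeR with the sample as a block, leaving the gene itself out. For Il21 in IL-4eGFP+ nodes, 8.96% of the 10822 genes tested were called over 4 samples. Pdcd1 was 1.79 ± 0.09 higher (adjusted p = 6.00e-13), Cxcr5 1.75 ± 0.10 (adjusted p = 9.63e-12) and Bcl6 1.32 ± 0.11 (adjusted p = 1.06e-08), and Maf was 1.11 ± 0.07 higher (adjusted p = 1.02e-10). By size, the leading genes were Padi4 (2.86 ± 0.14), Cebpa (2.80 ± 0.13), Sostdc1 (2.34 ± 0.11), Il1r2, which encodes the decoy receptor of IL-1 (1.96 ± 0.13), and Nr4a1 (1.92 ± 0.14).

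Il4 was 0.92 ± 0.09 log2 units higher in Il21+ node cells (edgeR, adjusted p = 8.67e-08), whereas the effector cytokines Il13 and Il5 fell by 1.69 ± 0.27 and 4.87 ± 0.70 (adjusted p = 9.86e-05 and 2.60e-05). Il5 UMIs were found in only 5 to 23 cells of a sample, so its fold rests on few cells and its size is not read. Gata3 fell by 0.72 ± 0.14, Il1rl1 by 1.91 ± 0.43, Foxp3 by 3.57 ± 0.72 and Ifngr2 by 1.36 ± 0.27 (adjusted p = 0.000895, 0.00397, 0.00149 and 0.00142). Of 29 transcription factors 13 were higher and 3 lower, with a median of 0.33 against 0.00 over all genes. Among the genes that fell by the most were the granzyme genes Gzma (-4.65 ± 0.20) and Gzmb (-2.47 ± 0.37), Plac8 (-2.56 ± 0.15), Cd74 (-2.60 ± 0.15) and the immunoglobulin segment Igkv5-48, which had 0 CPM in Il21+ cells and up to 487 in the cells without. The B cell marker Cd79a (-5.05 ± 0.66) and the myeloid marker Lyz2 (-2.58 ± 0.36) were lower too, and the part of such cells among those without Il21 was not tested.

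In MLN 1 and MLN 2 of the first run, 4.08% of 9422 genes were called between cells with and without Il21. Cebpa (2.84 ± 0.28), Padi4 (2.75 ± 0.19), Angptl2 (2.61 ± 0.30), Sccpdh (2.58 ± 0.22) and Stx11 (2.26 ± 0.17) were higher, and Lztfl1 (-2.98 ± 0.33), Cxcr6 (-1.97 ± 0.21), Epas1 (-1.89 ± 0.24), Plac8 (-1.78 ± 0.22) and Satb1 (-1.67 ± 0.22) lower. Pdcd1, Cxcr5 and Bcl6 were 1.47 ± 0.12, 1.26 ± 0.14 and 1.00 ± 0.26 higher (edgeR, adjusted p = 1.07e-11, 6.05e-09 and 0.0132), and the homing gene Ccr7 fell by 1.76 ± 0.38 (adjusted p = 0.00224). Il13 was found in 0 of 131 Il21+ and in 40 of 3085 other MLN cells. A count of 0 allows 3 of the 131 cells, so no difference in Il13 is read from these counts. The fit had 2 samples, and without the block 182 in place of 384 genes were called.

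Il10+ cells held Il1rl1 more often than the other cells in each group, and Il2ra in the lung and the IL-4eGFP+ nodes. In the lung, Il2ra was detected in 69.2% of 78 Il10+ cells against 26.8% of the others, Il1rl1 in 88.5% against 64.2%, Pdcd1 in 65.4% against 37.8% and Il13 in 51.3% against 25.4%. These shares pool both lung libraries. Of the 78 cells 66 were in lung 1, where each of these genes was more frequent than in lung 2. The part of the library in these contrasts was not tested. In the fits given below, Pdcd1 was not called, at 0.11 ± 0.34 over lung 1 and MLN 1 and -0.88 ± 0.37 in the nodes (edgeR). In the MLN, 62.1% of 29 Il10+ cells held Il1rl1, against 3.14% of the others, and 86.2% held Gata3, against 50.5%, whereas Cxcr5 was in 3.45% against 39.8%. In the IL-4eGFP+ nodes the 84 Il10+ cells held Gata3 in 79.8% against 35.0%, Il2ra in 46.4% against 8.39% and Il13 in 20.2% against 2.23%. Il10+ cells were deeper, with medians of 7893 against 6542 UMIs in the lung and 5360.5 against 3335.5 in the nodes, and after thinning the shares of Il2ra were 32.1% against 10.2% and 37.2% against 4.31%. The other shares are given without thinning.

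In the fit over medLN 1 and MLN 2, the IL-4eGFP+ samples with at least 20 Il10+ cells, 2.94% of 10294 genes were called, and the median over all genes was -0.12, which applies to each value of this fit. With 2 samples, its p-values rest mostly on a spread estimated over all genes, and measure the spread between the 2 samples poorly. Areg, which encodes amphiregulin (5.07 ± 0.33, edgeR, adjusted p = 2.74e-48), and Gzmb (5.00 ± 0.20, adjusted p = 8.75e-129) led the higher genes, followed by Tmem158 (4.05 ± 0.61), Csf1 (3.89 ± 0.23) and Tnfrsf9 (3.74 ± 0.25). Prdm1 rose by 3.49 ± 0.50, Foxp3 by 3.04 ± 0.62, Il1rl1 by 2.63 ± 0.37, Ahr by 2.53 ± 0.34 and Il10ra by 2.02 ± 0.37 (adjusted p = 1.08e-09, 0.000107, 2.71e-10, 5.27e-11 and 4.83e-06).

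Both Il13 (2.58 ± 0.22, edgeR, adjusted p = 7.21e-28) and Il4 (1.92 ± 0.20, adjusted p = 3.85e-19) were higher in Il10+ node cells, while Il5 differed by 2.26 ± 0.73 (adjusted p = 0.0602). Bcl6 and Cxcr5 fell by 3.07 ± 0.73 and 3.37 ± 0.70 (adjusted p = 0.00194 and 0.000124), and Nsg2 (-5.65 ± 0.64), Tcf7 (-3.64 ± 0.31), Actn1 (-3.49 ± 0.55) and Cd74 (-2.72 ± 0.35) led the lower genes beside Slpi, at 0 CPM in Il10+ cells. Of 5 myeloid markers tested, Lyz2 was lower (-10.1 ± 2.67, edgeR, adjusted p = 0.00844) and Cst3 higher (0.91 ± 0.22, adjusted p = 0.00310). None of 3 B cell markers tested was called. The part of such cells among those without Il10 was not tested. Of 29 transcription factors 12 were higher and 1 lower, with a median of 0.87. Without the block 68 genes were called in place of 303, and DESeq2 with the block called 92.

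In the first run, the fit over lung 1 and MLN 1 called 0.211% of 9945 genes between cells with and without Il10. Il2ra rose by 2.62 ± 0.24 (edgeR, adjusted p = 0.0152), Lag3, which encodes an inhibitory receptor, by 2.30 ± 0.26 (adjusted p = 0.0244) and Il4 by 1.41 ± 0.20 (adjusted p = 0.0436), while Tcf7, a factor of naive and memory T cells, fell by 3.30 ± 0.28 (adjusted p = 0.0152), Id3 by 3.77 ± 0.51 (adjusted p = 0.0371) and Ccr7 by 2.63 ± 0.38 (adjusted p = 0.0436). The genes 1700061F12Rik (2.81 ± 0.40), Ier3 (2.41 ± 0.32) and Arl5a (2.22 ± 0.30) were also higher, and Rflnb (-2.83 ± 0.34), Asap1 (-2.59 ± 0.31) and Slamf6 (-2.12 ± 0.26) lower. Of the genes of Th2 effector cells, Il1rl1 (2.33 ± 0.61), Gata3 (1.23 ± 0.37), Il13 (0.49 ± 0.40) and Il5 (-1.63 ± 0.36) were not called in this fit (edgeR, adjusted p = 0.344, 0.442, 0.917 and 0.219). Without the block 0 genes were called by edgeR (262 at an unadjusted p under 0.05), while DESeq2 with the block called 33.

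Foxp3 marks the regulatory T cells in which Il10 and Il2 are known to part. Among IL-4eGFP- node cells, Il10 was detected in 14 of 898 Foxp3+ cells (1.56%) and in 3 of 7776 others (0.0386%). In IL-4eGFP+ cells it was detected in 9 of 166 Foxp3+ cells (5.42%) and in 75 of 7908 others (0.948%), so that most IL-4eGFP+ cells with Il10 held no Foxp3 UMI, in contrast to the other gate. Il2 was found in 0 of 898 IL-4eGFP- and 0 of 166 IL-4eGFP+ cells with Foxp3, which allows up to 0.334% and 1.81%.

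Il2+ cells were compared in the same way. In the lung, Cd40lg, which encodes CD40 ligand, was detected in 90.4% of 125 Il2+ cells against 82.6% of the others, Cxcr3 in 15 of them against 4.30% and Ifng in 6.40% against 2.40%, whereas Pdcd1 was in 29.6% against 40.1% and Il10 in 1.60% against 5.54%. These shares pool both lung libraries. The 2 Il2+ lung cells with Il10 were both in lung 2, among its 49 Il2+ cells. There, 12 of 416 cells held Il10, against 66 of 1082 in lung 1, which had 76 Il2+ cells. The lower Il10 share of Il2+ lung cells thus came from lung 1 and was not seen in lung 2. In the fit over all 4 libraries of the first run, 0.262% of 9156 genes were called. Tnfsf11, which encodes RANKL, was 0.83 ± 0.13 higher (edgeR, adjusted p = 0.00254), Cd40lg 0.53 ± 0.08 (adjusted p = 0.00254) and Bcl2a1b 0.40 ± 0.08 (adjusted p = 0.0418).

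Lower in Il2+ cells of the first run were the inhibitory receptor genes Ctla4 (-1.11 ± 0.13, edgeR, adjusted p = 7.45e-05) and Lag3 (-1.36 ± 0.21, adjusted p = 0.00248), Lgmn (-1.45 ± 0.19), Klf2 (-1.38 ± 0.22) and Rasgrp2 (-0.91 ± 0.19). Ikzf3, which encodes the Il2 repressor Aiolos, fell by 0.84 ± 0.15 (edgeR, adjusted p = 0.00680). Il10 was at -3.98 ± 0.76 (edgeR, adjusted p = 0.0164), but only 2 Il2+ cells of this run held it, both in lung 2. With so few cells, no lower Il10 level is read from this value. Without the block 0 genes were called by edgeR (195 at an unadjusted p under 0.05), while DESeq2 with the block called 11.

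In the IL-4eGFP+ nodes, 1.15% of 10898 genes were called between cells with and without Il2 over 4 samples. Nr4a1 (2.34 ± 0.32, edgeR, adjusted p = 2.71e-05), Il1r2 (1.98 ± 0.19), Myc (1.62 ± 0.15), Cd160 (1.46 ± 0.24) and Nfkbid (1.44 ± 0.20) led the higher genes, and the cytokine genes Tnf (1.77 ± 0.35), Lta (1.52 ± 0.30), Cd40lg (0.79 ± 0.17) and Tnfsf11 (0.69 ± 0.16) were higher as well (adjusted p = 0.00392, 0.00482, 0.0108 and 0.0161). Irf4 and Stat5a rose by 1.10 ± 0.17 and 0.98 ± 0.22, and Maf and Ikzf2 fell by 0.86 ± 0.15 and 1.26 ± 0.25 (adjusted p = 0.000154, 0.0178, 0.000607 and 0.00359). Tnf (1.46 ± 0.18), Lta (0.75 ± 0.21) and Tnfsf11 (0.49 ± 0.11) were also higher in Il21+ node cells (edgeR, adjusted p = 2.70e-06, 0.0249 and 0.00445). Cd40lg was not called there (-0.05 ± 0.10, edgeR, adjusted p = 0.830).

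Among the genes that fell by the most in Il2+ node cells were Plac8 (-1.90 ± 0.27), Gzmb (-1.73 ± 0.34), Cd74 (-1.55 ± 0.18), Gzma (-1.53 ± 0.19) and Igkv5-48, at 0 CPM in Il2+ cells. The B cell marker Cd79a (-3.76 ± 0.89, edgeR, adjusted p = 0.0244) and the myeloid marker Lyz2 (-2.55 ± 0.46, adjusted p = 0.00125) were lower too, being 1 of 3 and 1 of 6 markers tested, and the part of such cells among those without Il2 was not tested. Areg fell by 2.83 ± 0.61 (edgeR, adjusted p = 0.0104). Foxp3 and Il10 had 0 UMIs in all 198 Il2+ cells, against 166 and 84 of the 7876 other cells with a UMI. A count of 0 allows 3 of the 198 cells, so no absence of either gene is read from it. Without the block 34 in place of 125 genes were called. The fits for Il2, Il21 and Il10 share most of the cells without the cytokine, and are given side by side without a test between them.

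**Figure D4:**
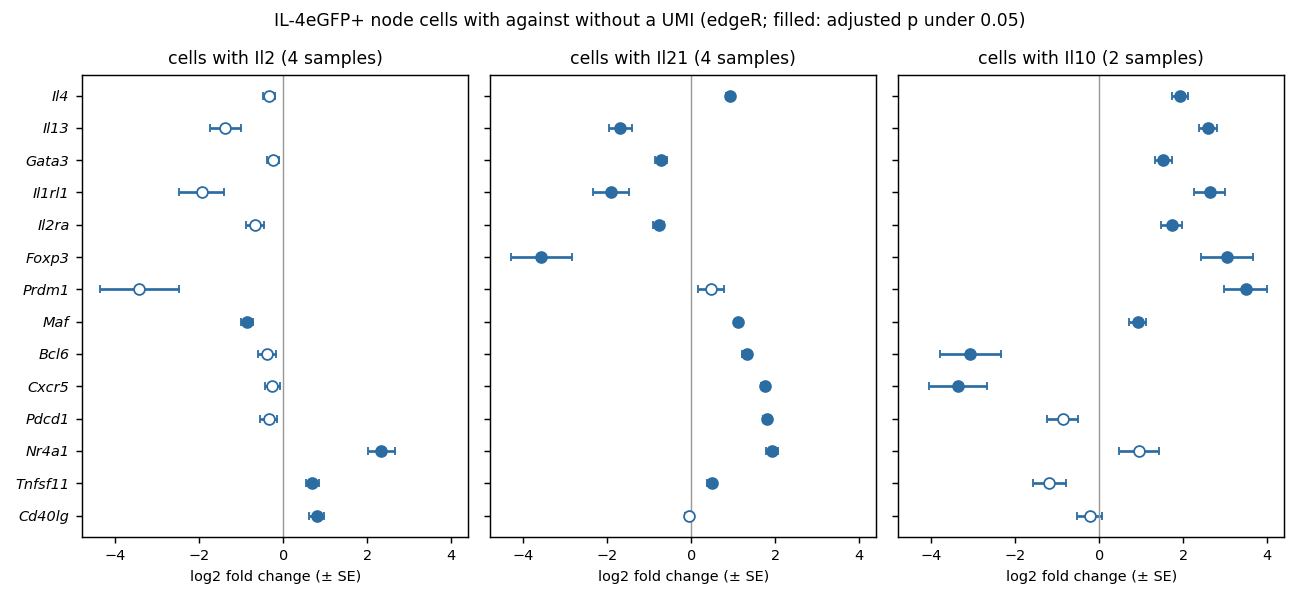
The x axes give the log2 fold change (edgeR, bars ± SE) of 14 genes between IL-4eGFP+ node cells with and without a UMI of Il2 (4 samples), Il21 (4 samples) and Il10 (2 samples), with filled points for an adjusted p under 0.05 and no point for Foxp3 in Il2+ cells, where it had 0 UMIs. Bcl6, Cxcr5 and Pdcd1 are filled on the right for Il21, Il13, Gata3, Foxp3 and Prdm1 on the right for Il10, and Nr4a1, Tnfsf11 and Cd40lg on the right for Il2. Nr4a1 and Tnfsf11 are filled on the right for Il21 too.

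Il3+ and Csf2+ cells were too few for such a fit. In the lung, 15 of 31 Il3+ cells held Il13 (48.4%, 30.2 to 66.9), against 26.3% of the others, and 5 held Il10 (16.1%, 5.45 to 33.7), against 4.98%. Il3+ cells were deep, at a median of 9721 against 6529 UMIs, and after thinning Il13 was in 29.0% against 16.1% and Il10 in 3.23% against 2.84%. All 31 Il3+ lung cells held Nr4a1, against 82.8% of the others, a share given without thinning. Of the 31 cells, 15 belonged to expanded clones (48.4%, 30.2 to 66.9), against 32.8%. Lung 1 gave 29 of the Il3+ cells, while the others pool both libraries. Il13 was in 318 of 1082 lung 1 and 83 of 416 lung 2 cells, and Il10 in 66 and 12. Nr4a1 was also more frequent in lung 1, so these contrasts partly reflect the library. Within lung 1, expanded clones held 51.7% of Il3+ cells against 37.3%.

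Csf2+ lung cells held Il2 in 17.6% (6.76 to 34.5) against 8.13%, Ifng in 11.8% (3.30 to 27.5) against 2.53% and Il2ra in 47.1% (29.8 to 64.9) against 28.6%. After thinning, Il2 was in 5.88% against 3.40% and Ifng in 8.82% against 1.66%. The 23 Csf2+ cells of the IL-4eGFP+ nodes held Gata3 in 69.6% (47.1 to 86.8) against 35.4%, Il1rl1 in 39.1% against 4.83% and Il13 in 17.4% against 2.37%, or 42.9% against 22.4%, 9.52% against 2.66% and 19.0% against 1.79% after thinning. Joint detection with Il2 and Ifng rested on 6 and 4 lung cells.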

How the data were processed

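The authors counted reads with Cell Ranger (2.1.1 and 3.0.1 for lung and MLN, mm10; 6.1.2 for medLN and MLN, build and depth equalisation not given in the sources used here) and deposited raw counts of UMIs per gene, hashtag and barcode, and counts of UMIs per TCR contig. The 6 genes, the gene lists and the tests were chosen with earlier results of these data known. Kept cells exceeded 500 UMIs, 500 genes and a novelty of 0.8 and had less than 7% mitochondrial UMIs, in lung and MLN also with productive TCRα and TCRβ contigs (4714 of 6319 barcodes), in the nodes also with 1 hashtag by HTODemux of Seurat 5.3.0 at a quantile of 0.99 (16748 of 19683 barcodes, leaving out 2536 hashtag doublets and 122 negatives). No other doublet caller was run.

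UMIs were summed per library or hashtag sample without TCR genes, and tested with edgeR 4.0.16 under R 4.3.3 (filterByExpr, TMM, quasi-likelihood, Benjamini-Hochberg, threshold 0.05). DESeq2 1.42.0 was an alternative. Simulated counts were used to check the comparisons of lung with MLN, of the gates, and of IL-4eGFP+ node cells with and without Il21. The other comparisons were not simulated. Samples with at least 20 positive cells entered the fits of cells with against cells without a gene. Shares have exact Clopper-Pearson 95% intervals (scipy 1.17.1), and a count of 0 is given as allowing 3. Cells were also thinned to 2000 UMIs. In joint detection this applied to the partner gene only, and cells were divided by the cytokine at full depth. Named in these fits are the 6 genes, Il4, the fixed lists (1 gene of which is not reported here), and, from a mean of 50 CPM upwards, the 5 highest and 5 lowest called genes. Where nothing says that samples are separate cultures, p-values measure the spread between these samples, of 2 mice a run. In the fits of cells with against without a gene over 2 samples, they rest mostly on a spread estimated over all genes. Same-numbered samples come from 1 mouse by the hashtag names, and by assumption in lung and MLN, and deviated together with r = 0.0358 (lung and MLN), 0.255 (IL-4eGFP+) and 0.0501 (IL-4eGFP-) over genes.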

Additional observations from a re-analysis of the deposited data

Results flagged for a closer look

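In a group of 4 node samples, 4 values stood farther from the others than Dixon's 95% limit, among 24 sets of 4 values looked at, of which chance flags about 1 in 20. Il10 in IL-4eGFP+ cells was at 18.4 CPM in medLN 2 against 7.36 to 9.08 in the other samples. The share of IL-4eGFP+ cells with Il10 was 1.30% in MLN 2 against 0.941% to 0.972%. Ifng in IL-4eGFP- cells was at 0.266 CPM in medLN 2, from 2 cells, against 0.124 to 0.130 from 1 cell each, and its share was 0.0956% against 0.0445% to 0.0461%.

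Lung and MLN barcodes that passed the other filters but lacked a productive TCRα or TCRβ contig entered no comparison. These 1224 barcodes held 109 Il2 UMIs in 46 cells, 82 Il3 UMIs in 7, 128 Csf2 UMIs in 12, 30 Il21 UMIs in 22, 115 Il10 UMIs in 30 and 53 Ifng UMIs in 25. In lung 2, 6 of them held 122 Csf2 UMIs, 70 of these in 1 cell, and 2 held 49 Il3 UMIs.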

How the results depend on the processing

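The calls of Ifng, Il10 and Il21 between lung and MLN (4.10 to 4.77, 2.28 to 5.02 and -3.93 to -2.94 on leaving out 1 library each) and of Il21, Il10 and Il2 between the gates (4.41 to 7.23, 2.97 to 3.75 and 2.26 to 2.87) kept direction and threshold in every alternative computed, with the replicate block too. Il2, Csf2 and Il3 between lung and MLN ranged from -0.32 to 1.99, -0.33 to 5.57 and -1.26 to 9.55 on leaving out 1 library, with a sign change without MLN replicate 1 (-0.32, -0.33 and -0.13) and, for Il3, without lung replicate 1 (-1.26). They were called without the filter (0.60, 1.04 and 1.37), without cells with extra TCR chains (1.83, 5.22 and 6.44) and, as chosen after seeing the data, without 1 MLN 2 cell (1.86, 5.36 and 6.54). Il2 was called when thinned (1.40), and Il2 and Csf2 with mouse as replicate block (0.84 and 1.74). The permutation differences of Csf2, Ifng and Il3 between the gates were 0.434 to 0.819, 0.109 to 0.365 and 0.109 to 0.298 CPM on leaving out 1 sample, with Ifng at the smallest possible p without medLN IL-4eGFP+ replicate 1. The causes were not tested.

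Uncalled values that changed sign were, between medLN and MLN in IL-4eGFP+ cells, Il2 (0.27, with -0.47 to 0.75 on leaving out 1 sample) and Il4 (-0.04, with -0.19 to 0.093). In cells with Il2 of the first run they were Il21 (0.35, with -0.18 to 0.74), Ifng (1.29, with -0.44 to 2.48) and Il4 (-0.03, with -0.11 to 0.030). In node cells with Il2 it was Il21 (0.14, then -0.52 thinned, and -0.27 to 0.52 on leaving out 1 sample), and in node cells with Il21 it was Il10 (1.00, -1.10 with DESeq2) and Il2 (-0.22, with -0.64 to 0.16).

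Counts of called genes moved by over 1.5 times as follows. Between lung and MLN, 3284 became 1833 with DESeq2, 2115 when thinned and 1907 to 3678 without 1 library. Between medLN and MLN, 159 in IL-4eGFP+ cells became 328 without the filter, 313 with the mouse as replicate block and 47 to 131 without 1 sample, and 5 in IL-4eGFP- cells became 23 with DESeq2, 67 without the filter, 21 with the block, 19 with hashtags called by share or with that gate alone, and 2 to 11 without 1 sample. The 18 genes that differed between gates became 37, 68, 81 with the hashtag as replicate block, 11 when thinned and 4 to 13 without 1 sample. For cells with against without Il2, 24 in the first run became 11 with DESeq2, 85 without the filter, 14 when thinned, 0 with no replicate block and 17 to 35 without 1 library, and 125 in the nodes became 55, 197, 73, 34 and 84 to 187. For Il21, 384 in the first run became 84 with DESeq2, 165 when thinned and 182 with no replicate block, and 970 in the nodes became 603 with DESeq2 and 616 to 853 without 1 sample. For Il10, 21 in the first run became 33, 241 without the filter, 49 when thinned and 0 with no replicate block, and 303 in the nodes became 92, 127 when thinned and 68 with no replicate block. The fits over 2 samples were not run with a sample left out, since no residual degree of freedom remains.

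The mean share of cells with any of the 6 genes fell from 18.7% to 9.99% in the lung, from 8.32% to 3.89% in the MLN, from 9.93% to 6.58% in IL-4eGFP+ and from 0.958% to 0.572% in IL-4eGFP- nodes when thinned, and was 17.5% in the lung without the TCR criterion. Leaving out 1 sample gave 18.3% to 19.1%, 7.88% to 8.75%, 9.68% to 10.1% and 0.939% to 0.996%. Depth limits Il3, Csf2 and Ifng in the nodes, where a count of 0 allows 0.133% to 0.151% of the cells of a sample.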

Other observations

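Over the 12 sums of counts, the genes whose log2(CPM + 1) followed that of each cytokine most closely, among 9110 with a mean of at least 5 CPM, are given as a description, since the sums share libraries, mice and runs. They were Cbfb (Pearson r = 0.970) for Il2, Vapb (0.924) for Il3, Rnf6 (0.945) for Csf2, Cep19 (0.979) for Il21, Mis18a (0.962) for Il10 and Ifnar1 (0.986) for Ifng. Among the 5 closest were Csf2 for Il3 (0.887), Ier3 for Il10 (0.954) and Tnfaip3, an inhibitor of NF-κB signals, for Ifng (0.983). The levels of Il2, Il3 and Csf2 in MLN 2 include the 1 cell described above.

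Few clones held a cytokine in several cells. In the lung, 4 clones had 2 or more Il2+ cells, and Il3, Il10 and Ifng had 1 such clone each. In the MLN, 5 clones had 2 or more Il21+ cells and 1 clone had 2 or more Il10+ cells. Of the Il10+ MLN cells 37.9% (20.7 to 57.7) belonged to expanded clones, against 25.6% of the others, and of the Il2+ lung cells 35.2% (26.9 to 44.2) against 32.9%. For Il2 the libraries differed, with 36.8% against 37.8% in lung 1 and 32.7% against 19.6% in lung 2.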
